A study of Mus musculus with 8 samples.

Results

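The 10 genes described here are those by which intestinal niche fibroblasts are usually told apart: the transcription factor genes Foxl1, Foxf1, Foxf2 and Sox6, the receptor genes Pdgfra and Pdgfrb, and the cell surface genes Cd34, Cd81, Pdpn and Thy1. They were taken by symbol from the 32285 genes listed in each library, and all 10 were found. Unique molecular identifiers (UMIs, each standing for 1 captured transcript) were counted in 13552 fibroblasts of 2 assembloid stromal libraries and in 883 cells of the same kind in 2 assembloid epithelial libraries.

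The libraries were 10x Genomics single-cell 3′ v3 libraries from the mouse, on a C57BL/6 background. Colon assembloids are co-cultures in which colon organoids and primary colon stromal cells, each first grown alone, are joined in Matrigel. They were kept in medium that lacked noggin, R-spondin 1 and the Wnt activators. The 8 libraries formed 4 groups of 2: assembloid stroma (the EpCAM-negative cells), assembloid epithelium, organoid epithelium grown without stroma, and colon tissue epithelium. All assembloid cells were therefore cultured cells, and stroma taken directly from tissue was not analysed here. No genotype, treatment or animal age set the groups apart in the labels. The study's methods call the replicates of each group biological, but the labels do not tie a library to an animal or culture. The p-values rest on these few libraries. Where both arms come from the same libraries, they measure the spread of the differences within libraries and not that between libraries.

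In the lamina propria of the gut, fibroblasts form the niche of the crypt epithelium. Telocytes, large PDGFRα-high cells that express FOXL1, line the epithelium and release Wnt and BMP ligands, and trophocytes, CD34-positive CD81-positive cells below the crypt base, release R-spondins and the BMP antagonist gremlin 1. FOXF1 and FOXF2 are forkhead factors of gut mesenchyme downstream of hedgehog signaling, and SOX6 is an SRY-box factor found in telocytes and also in neural crest derivatives.

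A cell was called a fibroblast when the genes Col1a1, Col1a2, Col3a1, Dcn, Lum and Mmp2 together gave at least 0.5% of its UMIs, at least 4 of these 6 genes were detected, and the marker genes of epithelial, endothelial, glial, neuronal, immune and mural cells each stayed under 0.1%. None of the 10 genes belonged to these lists. The gate kept 5855 (64.9%) and 7697 (85.1%) of the cells that passed quality filters in stromal libraries 1 and 2, and 475 and 408 cells in assembloid epithelial libraries 1 and 2. Their median depth was 14818 and 12978 UMIs in stroma and 6601 and 11355.5 UMIs in the epithelial libraries. In units of CPM, UMIs of a gene scaled to a fixed total (counts per 1000000), the gated cells held 9446 to 12934 CPM of fibroblast markers, and the 5 mural markers summed to 165 to 216 CPM, with Higd1b at 0 and the other 4 detected in all 4 libraries. Epithelial markers summed to 69.3 and 8.33 CPM in gated stromal cells and to 399 and 338 in gated cells of the epithelial libraries, and their part in the levels below was not tested. At most 0.98% of the barcodes of the smaller library were shared between any pair of the 8 libraries.

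Levels below are CPM over the summed cells of a class in a library. A 3′ count is not corrected for gene length or capture, so levels are compared between libraries and cell classes but not between genes. Positions are on GRCm38 from GENCODE M21. Foxf1 (8:121084386-121088144) and Foxl1 (8:121127940-121130644) lie on the same strand of the same chromosome. The annotation places another gene, Gm20388, over both on that strand, and it is not among the genes counted in any of the 8 libraries.

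Foxl1, the telocyte factor, was rare. It gave 98 UMIs in 89 of 5855 fibroblasts of stroma 1 (0.98 CPM) and 213 UMIs in 161 of 7697 fibroblasts of stroma 2 (1.85 CPM). In the epithelial libraries its fibroblast counts were 0 and 3 UMIs. When every cell was thinned to 3000 UMIs, a Foxl1 UMI remained in 10 of 5823 cells of stroma 1 (0.17%, exact binomial 95% interval 0.0824 to 0.316%) and in 26 of 7682 cells of stroma 2 (0.34%, 0.221 to 0.496%). These intervals cover counting error only. The epithelial libraries then held 0 of 446 and 0 of 407 cells, which allows shares of up to 0.673% and 0.737%, above both stromal shares, so a difference was not detectable at this depth.

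Sox6 (7:115470872-116038796, minus strand, with the antisense genes Sox6os and Gm45025 in the same feature list) was also sparse in fibroblasts, with 33 and 72 UMIs in stroma and 4 and 2 UMIs in the epithelial libraries. The related forkhead gene Foxf1 was well detected, at 108 and 109 CPM in stroma and 67.5 and 75.9 CPM in the epithelial libraries. Foxf2 gave 11.4 and 12 CPM in stroma against 5.36 and 6.57 CPM. For both forkhead genes the stromal libraries lay above the epithelial libraries without overlap. How many of all genes do so was not counted. In the edgeR comparison of these fibroblast groups given below, 52.2% of 16177 genes passed, 25.6% higher and 26.6% lower in the epithelial libraries.

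Pdgfra, which encodes the receptor that marks gut fibroblasts as a whole, was at 214 and 269 CPM in stroma and at 474 and 380 CPM in the epithelial libraries, so its groups also did not overlap but in the opposite order. Pdgfrb, the receptor shared by fibroblasts and pericytes, was at 73.0 and 58.6 CPM in stroma and 75 and 83.8 CPM in the epithelial libraries. These values lay close together, and the 2 lowest were the stromal ones.

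Among the surface genes, Cd34, which encodes a sialomucin of fibroblast progenitors and endothelium, was at 25.7 and 29.2 CPM in stroma and 19 and 20.7 CPM in the epithelial libraries. The tetraspanin gene Cd81 was at 498 and 379 CPM in stroma and 251 and 267 CPM in the epithelial libraries. Thy1, which encodes the GPI-anchored antigen CD90, was at 204 and 104 CPM in stroma and 35.7 and 56.7 CPM in the epithelial libraries. Pdpn, which encodes podoplanin, was at 274 and 248 against 239 and 203 CPM. All 4 surface genes were higher in both stromal libraries than in either epithelial library, by a narrow margin for Pdpn. How many of all genes separate in this way was not counted, so the order of the 4 is a description. By edgeR's test, a different measure, 26.6% of all genes were lower in the epithelial libraries (52.2% called in all), and Pdpn did not pass. The library kinds also differ in counting software, as given below. As a ratio of the paired values, the spread inside both groups was widest for Thy1 among these surface genes.

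**Figure D1:**
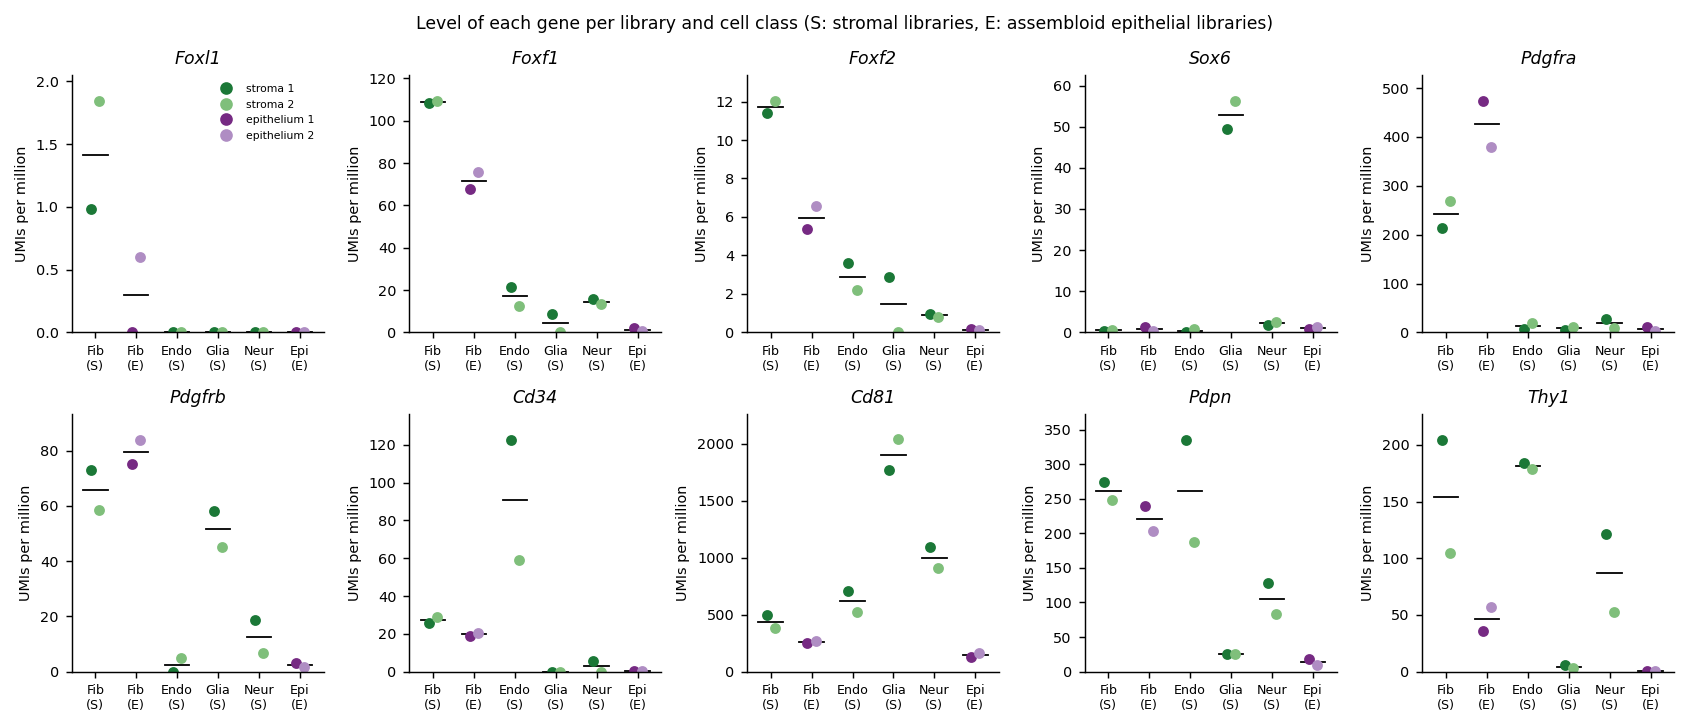
Level of each gene in CPM (vertical axis, linear from 0) for each cell class (horizontal axis), with 1 point per library. Foxl1 and Sox6 are low in fibroblasts, Sox6 reaches 49.3 and 56.3 in glia, Cd34 is highest in endothelial cells, and Cd81 is highest in glia at 1770 and 2038.

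The label of niche fibroblast genes was first checked against endothelial cells, glia and neurons caught in the same stromal libraries. Mural cells (14 and 7) and immune cells (3 and 5) fell below the minimum of 20 cells and were not compared. Endothelial cells numbered 22 and 66, glia 53 and 52, and neurons 80 and 98, and each class was summed per library and compared with the fibroblasts in 1 edgeR quasi-likelihood fit with the library as a block. Of 11229 genes tested, 26.6% passed the threshold of adjusted p 0.05 against endothelial cells (14.0% higher and 12.6% lower in fibroblasts), 23.4% against glia (11.6% and 11.9%) and 35.6% against neurons (16.9% and 18.7%).

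Pdgfra separated fibroblasts from the endothelial, glial and neuronal classes. It was at 7.21 and 18.3 CPM in endothelial cells, 5.80 and 11.3 CPM in glia, and 28.0 and 9.90 CPM in neurons, against 214 and 269 CPM in fibroblasts. The log2 fold change was 3.96 ± 0.43 (SE, edgeR adjusted p = 4.87e-05) over endothelial cells, 4.91 ± 0.55 (6.83e-05) over glia and 3.86 ± 0.38 (1.84e-05) over neurons. Foxf1 was likewise higher in fibroblasts than in endothelial cells, which had 21.6 and 12.4 CPM (log2 fold change 2.91, edgeR adjusted p = 0.000154), and than in neurons, which had 15.9 and 13.2 CPM (3.06, adjusted p = 3.35e-05). Glia held 3 Foxf1 UMIs in all, giving a fibroblast-to-glia ratio of 25.4 (exact 95% interval 8.70 to 123, counting error only).

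Pdgfrb was higher in fibroblasts than in endothelial cells (0 and 5.11 CPM, log2 fold change 3.89, edgeR adjusted p = 0.000125) and neurons (18.7 and 6.6 CPM, 2.57, adjusted p = 0.000158). Glia had 58 and 45 CPM of Pdgfrb, and that difference did not pass the test (0.44 ± 0.34, adjusted p = 0.419). Pdpn was higher in fibroblasts than in glia (26.1 and 25.3 CPM, 3.46, adjusted p = 2.63e-05) and neurons (128 and 83.3 CPM, 1.49, adjusted p = 0.000569). In endothelial cells Pdpn was at 335 and 188 CPM, on either side of the fibroblast values, and the difference did not pass (0.17 ± 0.24, adjusted p = 0.661).

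Cd34 and Cd81 were each higher in another class than in fibroblasts, and Thy1 lay between the fibroblast values in endothelial cells. Cd34 reached 123 and 59.1 CPM in endothelial cells, above both fibroblast values (fibroblasts over endothelial cells, log2 fold change −1.47 ± 0.46, edgeR adjusted p = 0.0385, or 0.098 with DESeq2). It was at 0 in both glial samples, which makes the fibroblast level at least 6.43-fold higher than the level that 3 counts over both glial samples would give. Cd81 was higher in glia, with 1770 and 2038 CPM, and in neurons, with 1092 and 908 CPM, than in fibroblasts (log2 fold changes of fibroblasts −2.05 and −1.06, adjusted p = 4.78e-06 and 0.000306). Thy1 was at 184 and 179 CPM in endothelial cells, between the fibroblast values of 204 and 104 CPM, and that difference did not pass the test (−0.33 ± 0.24, adjusted p = 0.355). Cd34 (5.59 and 0 CPM in neurons, log2 fold change 3.51, adjusted p = 0.00485) and Thy1 (121 and 52.8 CPM, 0.98, adjusted p = 0.00945, or 0.0918 without the library block) were higher in fibroblasts than in neurons, and Thy1 had 3 UMIs in glia, for a ratio of 35.2 (exact 95% interval 12 to 170, counting error only).

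Among the classes compared, Sox6 was highest in glia and not in fibroblasts. It was at 49.3 and 56.3 CPM in glia, against 0.33 and 0.62 CPM in fibroblasts (log2 fold change of fibroblasts −6.70 ± 0.59, edgeR adjusted p = 1.2e-05), and at 3000 UMIs per cell it was seen in 16.7% and 14.9% of glia against 0.17% of fibroblasts in either library. Epithelial cells were also a class of this fit, but their contrast with fibroblasts is not reported here. They held 92 of the 203 Sox6 UMIs of stroma 1 and 4 of the 144 of stroma 2, at 3.74 and 1.60 CPM, while glia held 17 and 20. Foxl1 gave 0 UMIs in endothelial cells, glia and neurons. The limits that a count of 0 allows in these small classes were 1.82, 4.29 and 1.31 CPM, next to a pooled fibroblast level of 1.45 CPM, so a difference of Foxl1 from endothelial cells and glia was not detectable, and the fibroblast level was at least 1.10-fold higher than 3 counts over both neuronal samples would give.

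The epithelial libraries gave a comparison with epithelial cells of the same libraries. Fibroblasts there exceeded epithelial cells for 8 of the 9 members tested, where 22.5% of 17879 genes were higher and 26.1% lower (48.6% in all). For example, Pdgfra was at 474 and 380 CPM in fibroblasts and at 10.5 and 2.45 CPM in epithelial cells (log2 fold change 6.21 ± 0.50, edgeR adjusted p = 0.000254). Cd81 was also abundant in epithelial cells, at 131 and 166 CPM, and differed least among the members that passed (0.65 ± 0.16, adjusted p = 0.0165). At 3000 UMIs a Pdgfra UMI was seen in 64.1% and 59.0% of fibroblasts and in 2.97% and 0.60% of epithelial cells, whereas a Cd81 UMI was seen in 47.8% and 45% against 31.3% and 34.9%. Sox6 was at 0.80 and 1.25 CPM in epithelial cells and did not pass the test. Foxl1 was left out by the filter on low counts, with 3 UMIs in fibroblasts and 1 in epithelial cells.

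The next comparison asked how the members follow the telocyte and trophocyte programs inside the gate. Each fibroblast was scored by 8 telocyte genes (Wnt5a, Wnt4, Bmp2, Bmp3, Bmp5, Bmp7, F3 and Nrg1) minus 8 trophocyte genes (Grem1, Rspo3, Rspo1, Mgp, C3, Il33, Ly6a and Ackr4), and the highest and lowest terciles of each library were compared. The lists hold no member, but score and members were counted in the same cells. The terciles are ranges of a continuous score and not cell types, and held 1951, 2565, 158 and 136 cells on each side in stroma 1 and 2 and epithelium 1 and 2.

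Forkhead genes were higher on the telocyte side of both stromal libraries, and Cd34, Cd81 and Thy1 were higher on the trophocyte side. Of the 10 members, 4 rose and 3 fell toward the telocyte side in stroma, where 4.14% and 3.74% of 15257 genes did so (7.88% in all). Pdgfra, Pdgfrb and Pdpn did not pass the test.

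Foxl1 gave 77 UMIs on the telocyte side and 11 on the trophocyte side of stroma 1 (2.31 and 0.34 CPM), and 187 and 7 UMIs in stroma 2 (4.44 and 0.20 CPM). The direction was the same in both libraries, with a log2 fold change of 3.56 ± 0.43 (SE, edgeR adjusted p = 0.000545). Sox6, with 22 against 3 UMIs and 57 against 9 UMIs, had a log2 fold change of 2.46 ± 0.53 (adjusted p = 0.0153).

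Foxf1 was at 139.8 CPM on the telocyte side and 84.0 CPM on the trophocyte side of stroma 1, and at 142.4 and 85.8 CPM in stroma 2. Both telocyte-side values lay above both trophocyte-side values, and the log2 fold change was 0.72 ± 0.10 (edgeR adjusted p = 0.0008). For Foxf2 the values were 15.4 and 9.74 CPM and then 18.2 and 8.44 CPM (0.87 ± 0.15, adjusted p = 0.00341).

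Cd34 was at 18.9 CPM on the telocyte side and 31.4 CPM on the trophocyte side of stroma 1, and at 18.3 and 38.0 CPM in stroma 2 (log2 fold change −0.91 ± 0.13, edgeR adjusted p = 0.00131). Cd81 showed 375 and 596 CPM, then 239 and 492 CPM (−0.87 ± 0.13, adjusted p = 0.00137). For both genes every trophocyte-side sample exceeded every telocyte-side sample. Thy1 showed 169 and 236 CPM in stroma 1 and 68.4 and 125 CPM in stroma 2 (−0.69 ± 0.15, adjusted p = 0.0181), so that its sides differed within each library but overlapped between libraries.

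The receptor genes and Pdpn were flatter. Pdgfra was at 204 and 242 CPM, then 252 and 291 CPM (−0.24 ± 0.09, edgeR adjusted p = 0.148), lower on the telocyte side in both libraries. Pdgfrb was at 79.4 and 66.4 CPM, then 55.8 and 56.6 CPM (0.10 ± 0.11, adjusted p = 0.655). Pdpn was at 274 and 280 CPM, then 276 and 203 CPM (0.19 ± 0.13, adjusted p = 0.459), without a shared direction in the libraries.

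**Figure D2:**
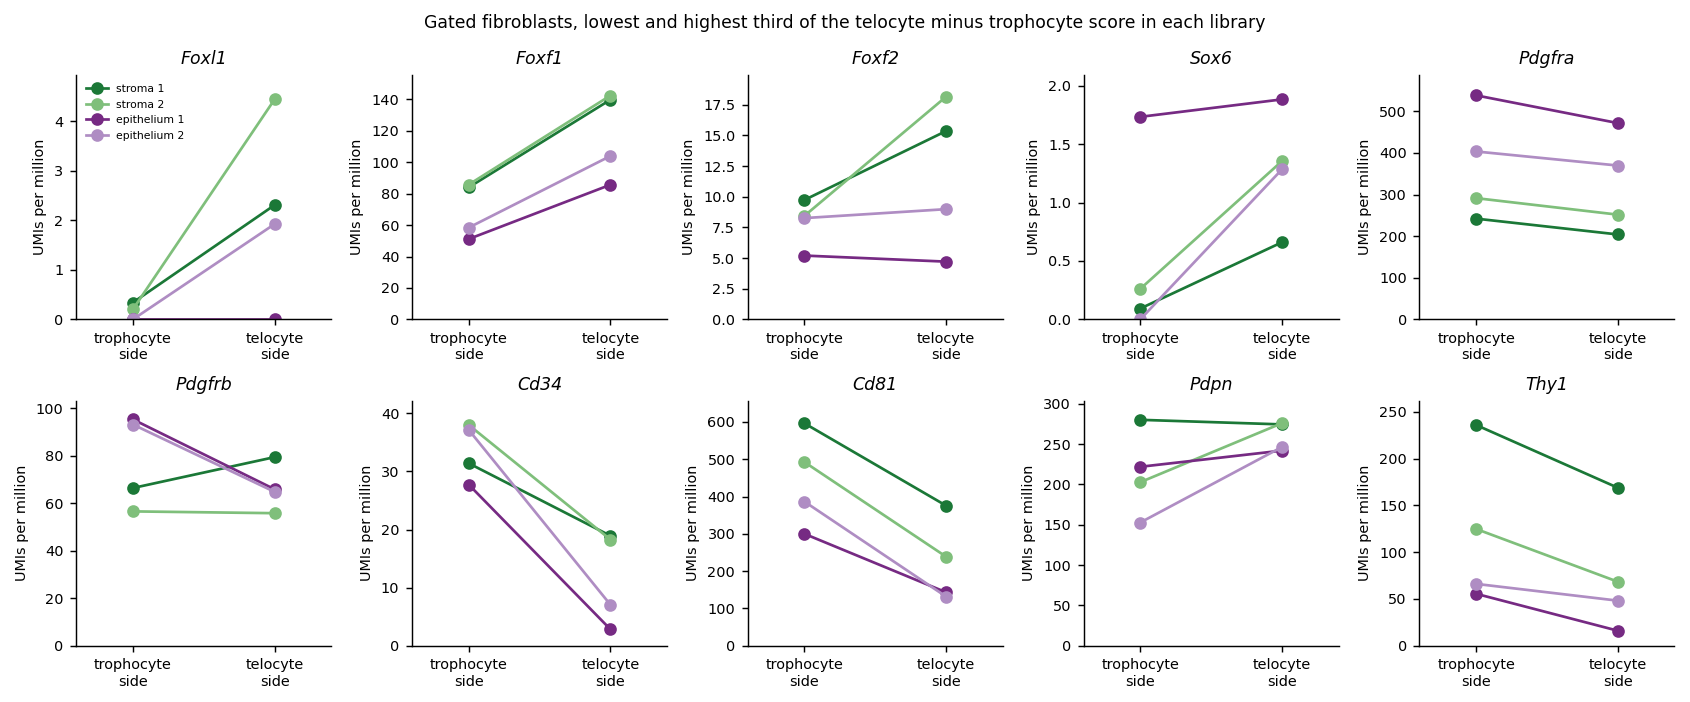
CPM (vertical axis, linear from 0) in the lowest and highest terciles of the telocyte minus trophocyte score, with 1 line per library. Foxf1 rises toward the telocyte side in all 4 libraries, and Cd34 and Cd81 fall in all 4.

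The share of the 6 gate genes moved with this score: it was 0.852% on the telocyte side and 1.03% on the trophocyte side of stroma 1, and 0.981% and 1.53% in stroma 2, with the same order in the epithelial libraries (1.01% against 1.54% in epithelium 1, and also lower in epithelium 2). In stroma 2 the telocyte side was also deeper (median 14225 against 11722 UMIs) and lower in mural markers (125 against 200 CPM), while in stroma 1 these were closer (14890 against 14379 UMIs, 205 against 221 CPM), and their part was not tested. With the gate held to cells with gate genes between 0.5 and 1%, an alternative chosen after seeing the data, Foxl1 (log2 fold change 3.56), Foxf1 (0.68), Foxf2 (0.88), Cd34 (−1.10), Cd81 (−1.46) and Thy1 (−1.14) still passed edgeR's test, and Sox6 did not (2.12, adjusted p = 0.0522). With the stricter gate of 1%, only Cd34 passed (−0.87), Foxl1 and Sox6 were too low to be tested, and Foxf1 (0.26, adjusted p = 0.230), Foxf2 (0.40, 0.412), Cd81 (−0.35, 0.113) and Thy1 (0.13, 0.776) did not pass. Foxf2, Sox6 and Thy1 also missed the threshold with DESeq2 (adjusted p = 0.0820, 0.155 and 0.212). Foxf2, Cd34 and Thy1 lost their calls without stroma 2, and Foxf2 without stroma 1. All assembloid libraries share a fit for the score sides, so these fits leave the stromal side effect on a single library. Their spread comes from the epithelial libraries and does not measure that between stromal libraries. Without the library as a block no member passed in edgeR, where Foxl1 had the lowest adjusted p, at 0.0750.

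In fibroblasts of the epithelial libraries 3 of the 10 members passed (1 higher and 2 lower, where 2.1% and 1.85% of genes were higher and lower, 3.96% in all), each in the direction it had in stroma. Cd34 was at 2.82 and 7.06 CPM on the telocyte side of epithelium 1 and 2, and at 27.7 and 37.2 CPM on the trophocyte side (−2.70 ± 0.34, edgeR adjusted p = 0.00128). Cd81 was at 143 and 132 CPM against 300 and 386 CPM (−1.38 ± 0.15, adjusted p = 0.000557). Foxf1 was at 85.7 and 104 CPM against 51.1 and 58.4 CPM (0.74 ± 0.15, adjusted p = 0.0164). With the stricter gate of 1% none of these 3 calls held, Cd34 being at −1.64 (edgeR adjusted p = 0.0913), Cd81 at −0.52 (0.223) and Foxf1 turning to −0.13 (0.936). The 3 calls were also lost without epithelium 2, and that of Foxf1 without epithelium 1. In those fits the epithelial side effect rests on a single library, and the spread comes from the stromal libraries. Foxf2 showed 4.71 and 8.98 CPM against 5.20 and 8.26 CPM and did not pass (−0.01 ± 0.44). Thy1 showed 16 and 48.1 CPM against 55.5 and 66.1 CPM (−0.94 ± 0.27, adjusted p = 0.0864), lower on the telocyte side in both libraries. The 3 Foxl1 UMIs of epithelium 2 were all on the telocyte side, and epithelium 1 had none.

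The size of the side effect was then compared between epithelial and stromal libraries by an interaction term, which 0.629% of genes passed (0.354% higher and 0.275% lower). No member did. Cd34 had the lowest adjusted p among them, with a difference of −1.79 ± 0.39 in log2 fold change (edgeR adjusted p = 0.0738), and Foxf1 differed by 0.02 ± 0.18 (adjusted p = 0.982). Before correction, Pdgfrb, Cd34 and Cd81 had an unadjusted p under 0.05, and DESeq2 called Cd34 (adjusted p = 0.0439).

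The gated cells were not where all Foxl1 counts lay. Of the Foxl1 UMIs in passing cells of stroma 1 and 2, 47.3% and 59.2% were in gated fibroblasts and 50.2% and 40.8% in cells that no gate assigned, where its level was 2.91 and 7.81 CPM. Cells of the stromal libraries in which every other marker list stayed under 0.1% were therefore also grouped by the share of the 6 gate genes, as a description. In bins of 0.1 to 0.2%, 0.2 to 0.5%, 0.5 to 1% and at least 1%, Foxl1 was at 3.81, 3.18, 1.25 and 0.45 CPM in stroma 1 and at 8.99, 8.32, 3.23 and 0.83 CPM in stroma 2. Its level fell with each step from 0.1% upward in both libraries, but the bin of 0.1 to 0.2% holds 7 and 9 Foxl1 UMIs, so the first step rests on few counts. Below 0.1%, in 79 and 47 cells, it was at 0. There 3 counts would give 4.66 and 8.84 CPM, near the level of the bin above, so absence is not shown.

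Foxf1 had its highest level at 0.2 to 0.5%, with 150 and 183 CPM, and fell to 79.5 and 91.4 CPM at 1% or more. Below 0.1% it gave 1 and 0 UMIs. Thy1 ran the other way between the same bins, from 116 and 45 CPM to 281 and 125 CPM. Pdgfra rose from 174 to 254 CPM and from 228 to 306 CPM, and Pdgfrb from 59.2 to 84.0 CPM and from 50.9 to 62.3 CPM. The gate at 0.5% thus keeps cells that are low in Foxl1 and high in Thy1 relative to the cells just below it. The bin of 0.1 to 0.2% held 115 and 63 cells.

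**Figure D3:**
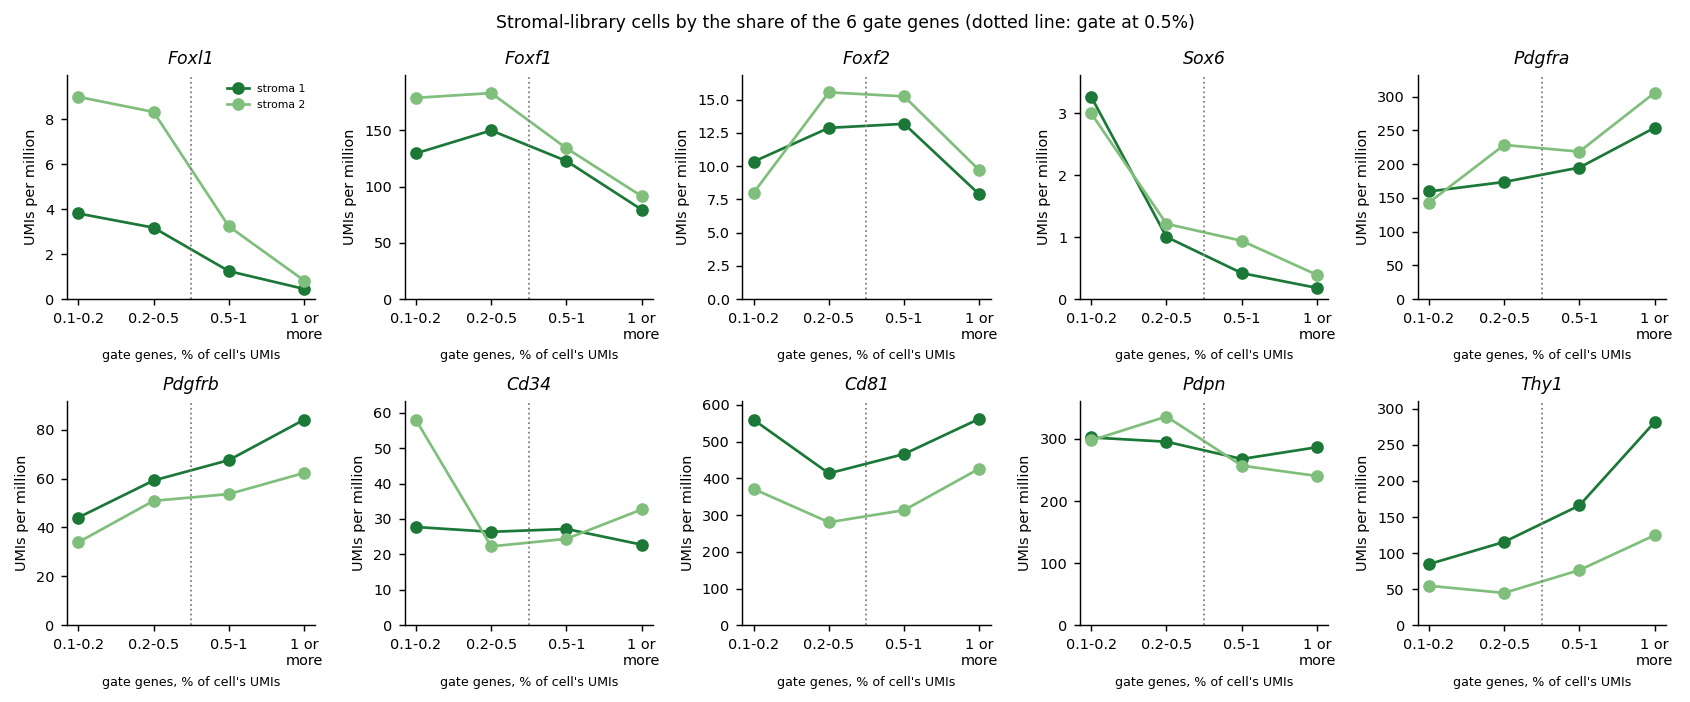
Level in CPM (vertical axis, linear from 0) in cells binned by the share of UMIs from the 6 gate genes (horizontal axis, percent), with 1 line per stromal library and a dotted line at the gate of 0.5%. Foxl1 falls from 3.81 to 0.45 and from 8.99 to 0.83 across the 4 bins from 0.1% upward that are drawn, and Thy1 is highest in the top bin.

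Contractile genes vary among gut fibroblasts, from quiet cells to myofibroblasts. Gated stromal fibroblasts were scored by Acta2, Tagln, Myh11, Cnn1, Actg2 and Mylk, and the terciles were compared within each library. In stroma 2 the 2565 cells of the lowest tercile were tied at the same score, with 0 UMIs of these 6 genes. That arm is therefore a set of cells without a contractile UMI and not a graded part of the score. The lowest tercile of stroma 1 was close to such a set, with 3.13 CPM of these genes against 463 CPM in the highest tercile. The contractile-high cells were deeper, with a median of 16712 and 15226 UMIs against 12182 and 10711 in the contractile-low cells, and the share of the 6 gate genes was lower in them, at 0.893% against 0.998% and 1.17% against 1.35%. The 8 telocyte genes of the score above were higher in contractile-high cells of stroma 2 (460 against 297 CPM) but not of stroma 1 (432 against 454 CPM). The part of depth, of the gate genes and of the telocyte genes in these results was not tested. Of 14330 genes, 15.0% passed (8.37% higher and 6.61% lower), and 4 members were higher and 3 lower in contractile-high cells.

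Foxl1 was at 1.34 CPM in contractile-high and 0.66 CPM in contractile-low cells of stroma 1, and at 2.46 and 0.83 CPM in stroma 2 (log2 fold change 1.24 ± 0.27, edgeR adjusted p = 0.0245). Pdgfrb, the receptor of the contractile mural lineage, was at 80.6 and 64.8 CPM, then 68.1 and 48.6 CPM (0.31 ± 0.06, adjusted p = 0.0124). Pdpn was at 299 and 246 CPM, then 296 and 185 CPM (0.39 ± 0.08, adjusted p = 0.0179). Foxf2 rose with them (0.41, adjusted p = 0.0249). Cd81 was lower in contractile-high cells (−0.34, adjusted p = 0.013), as were Cd34 (−0.28, adjusted p = 0.0359) and Pdgfra (−0.22, adjusted p = 0.0432). The differences other than that of Foxl1 were small. Foxf1 (0.10), Sox6 (0.44) and Thy1 (−0.06) did not pass. Without the library block, no gene passed in this comparison by edgeR, whereas 1137 of the genes had an unadjusted p under 0.05 in that fit, and DESeq2 with the block called 665 genes. Of the 7 member calls, those of Cd81 and Pdpn held with DESeq2, and with the strict gate (adjusted p = 0.0114 and 0.0121). Foxf2, Cd34, Pdgfra and Pdgfrb missed the threshold in both, and Foxl1 was not tested with the strict gate and had no DESeq2 adjusted p. With the lower collagen gate, chosen after seeing the data, only Pdgfrb (0.0416), Cd81 (0.0351) and Pdpn (0.0475) of the 7 passed, and with the stricter cell filter Foxl1 (0.0772), Cd34 (0.0861) and Pdgfra (0.0902) missed.

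Fibroblasts caught in the assembloid epithelial libraries were finally compared with those of the stromal libraries, to ask whether the members' levels depend on the fraction in which the cells were caught. This comparison cannot be told apart from the processing, because the stromal libraries were counted with Cell Ranger 6.0.1 and the epithelial libraries with 7.1.0, and 52.2% of 16177 genes passed. By quartile of intron length, from short to long, the median log2 fold change of all genes was −0.60, −0.44, −0.06 and 0.77, so genes with long introns were higher in the epithelial libraries. Other markers moved with the comparison too: the 6 contractile genes summed to 506 and 851 CPM in fibroblasts of the epithelial libraries against 207 and 167 CPM in stroma, and the 5 immune markers to 18.2 and 16.7 CPM against 2.08 and 1.85 CPM. Their part in the values below was not tested.

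Of the members, 1 was higher and 5 were lower in the epithelial libraries, against 25.6% and 26.6% of all genes. Thy1 fell by 1.77 on the log2 scale (SE 0.36, edgeR adjusted p = 0.00807), Foxf2 by 1.00 (SE 0.22, adjusted p = 0.0105), Cd81 by 0.80 (SE 0.19, adjusted p = 0.0156), Foxf1 by 0.64 (SE 0.15, adjusted p = 0.0131) and Cd34 by 0.51 (SE 0.17, adjusted p = 0.0451). Pdgfra rose by 0.78 (SE 0.22, adjusted p = 0.026). The introns of the members called lower span 1344 (Foxf1), 2201 (Thy1), 3225 (Foxf2), 12317 (Cd81) and 15171 bases (Cd34), and those of Pdgfra 35900 bases. Pdgfrb (0.23, adjusted p = 0.274), Pdpn (−0.28, 0.235) and Sox6 (0.57, 0.569) did not pass, with introns of 34434, 30317 and 553093 bases. The part of intron length in these values was not tested. For Foxl1, which has no intron, the pooled epithelial-to-stromal ratio was 0.247 from 3 against 311 UMIs (exact 95% interval 0.051 to 0.729, counting error only). That interval leaves out the spread between libraries, and Foxl1 did not pass edgeR's test (adjusted p = 0.106). With a library left out, its group keeps a single library, and the spread comes from the other group alone. In such fits the Cd34 call was lost whichever library was left out. Leaving out epithelium 1 also ended the calls of Thy1 and Pdgfra, and leaving out stroma 1 those of Foxf1, Pdgfra and Cd81. Leaving out stroma 2 ended those of Foxf1 and Foxf2.

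**Figure D4:**
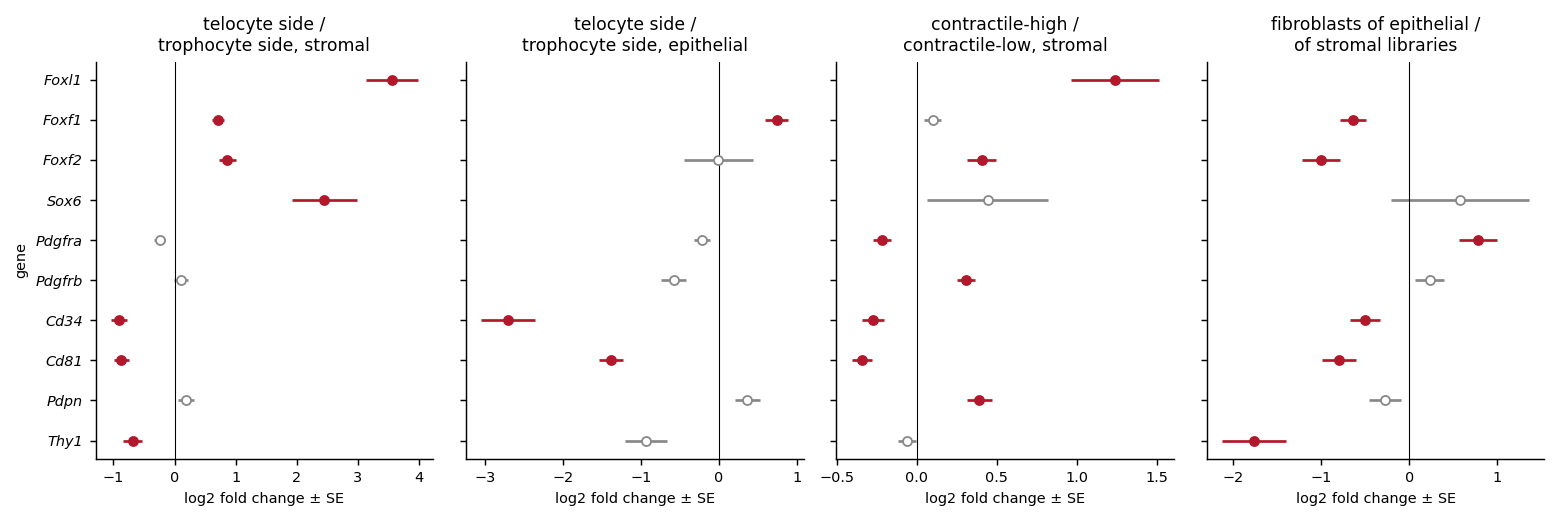
Log2 fold change ± SE of each gene (horizontal axis, linear, 0 marked) in 4 comparisons, filled red where edgeR's adjusted p passed the threshold and open grey where it did not, with Foxl1 and Sox6 not drawn where their counts were too few for a fitted fold. On the telocyte side of stroma Foxl1 lies at 3.56 and Cd34 at −0.91, and in the comparison of epithelial with stromal libraries Pdgfra lies at 0.78 and Thy1 at −1.77.

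Trophocytes and telocytes are usually told apart by combinations of markers, so combinations were counted after thinning each cell to 3000 UMIs. A gated fibroblast held UMIs of a median of 2 of the 10 members in all 4 libraries. Cells with Cd34 and Cd81 but not Foxl1 numbered 297 of 5823 in stroma 1 (5.10%), 434 of 7682 in stroma 2 (5.65%), 13 of 446 in epithelium 1 (2.91%) and 20 of 407 in epithelium 2 (4.91%). At this depth no cell held all 3 genes. Foxl1 without Cd34 and Cd81 was seen in 7 and 16 stromal cells, and Foxl1 with Cd81 but not Cd34 in 3 and 9. These counts depend on depth. Cells with Cd34 and Cd81 but not Foxl1 made up 2.07% and 1.85% of stromal fibroblasts at 1500 UMIs, 10.9% and 12.1% at 6000 UMIs and 23.8% and 24.4% without thinning. At 6000 UMIs 2 cells of each stromal library held all 3 genes, and without thinning 17 and 28 did, when Foxl1 with Cd81 but not Cd34 (41 and 68 cells) outnumbered Foxl1 without both (29 and 60 cells).

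A pair was described by the number of cells with both genes divided by the number that independent detection would give. Cd34 and Cd81 were seen together 1.07 and 1.17 times as often as that in stroma and 1.36 and 1.48 times in the epithelial libraries, the latter from 13 and 20 cells. In stroma the ratio stayed above 1 in all 14 values, which are those of the main setting and of other gates, filters and thinning depths in both libraries. Foxl1 and Cd81 met 0.44 and 0.59 times as often in stroma, from 3 and 9 cells, with a range of 0.26 to 0.89 over the 14 values. Foxl1 and Foxf1 met 1.93 times as often in both stromal libraries, from 5 and 13 cells, but over the 14 values this ratio ran from 0.76 to 2.76 and lay above 1 in 11. Foxf1 and Foxf2 gave ratios of 1.23 and 1.20 (above 1 in 13 of the 14 values), and Pdgfrb and Thy1 1.18 and 1.28. Pdgfra, detected in 43.2% and 50.4% of cells, met Foxf1 1.01 and 1.00 times as often and Cd34 0.99 and 1.09 times. Most of these ratios lie close to 1, and cells of 1 library are not replicates.

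**Figure D5:**
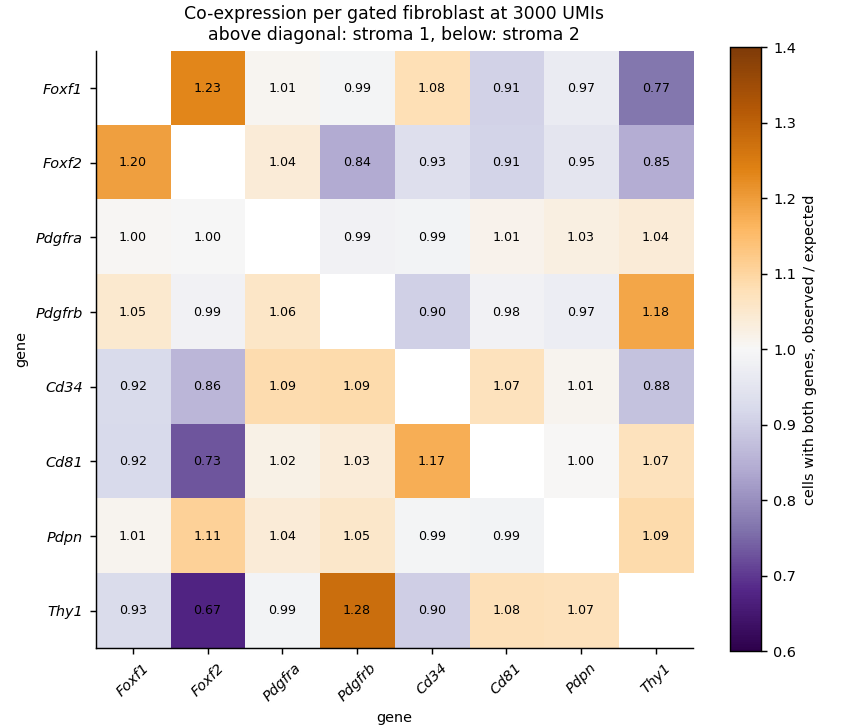
Cells with both genes of a pair relative to the number for independent detection (color scale, 1 means equal), with stroma 1 above and stroma 2 below the diagonal and genes on both axes. Cd34 with Cd81 (1.07 and 1.17) and Pdgfrb with Thy1 (1.18 and 1.28) lie above 1, and Foxf1 with Cd81 (0.91 and 0.92) below.

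Without thinning, the 89 and 161 Foxl1-positive fibroblasts of stroma were deeper than the rest, with a median of 19493 and 20833 UMIs against 14744 and 12878. Their median percentile on the telocyte minus trophocyte score was 92.9 and 94.5. They held 178 and 208 CPM of Foxf1, against 107 and 106 CPM in Foxl1-negative cells, and 21.7 and 25 CPM of Foxf2, against 11.2 and 11.6 CPM. Cd81 was at 328 and 154 CPM in the Foxl1-positive cells and at 502 and 386 CPM in the others. Pdgfra was at 200 and 297 CPM against 215 and 268 CPM, with no shared direction. These are sums over cells of 2 libraries and were not tested.

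The genes whose counts followed each member most closely across gated fibroblasts were ranked by the mean Pearson correlation over the 2 stromal libraries, among genes with a UMI in at least 5% of cells, as a description in which all genes of a cell share its library and thinned depth. Thy1 had the strongest partner, the homeobox gene Prrx1 (r = 0.360 and 0.296), followed by Spp1 (0.330 and 0.274), and in the epithelial libraries these fell to 0.092 and 0.088 and to 0.089 and 0.123. Cd81 followed Fth1 (0.213 and 0.272) and Aebp1 (0.181 and 0.213). Pdpn followed Lgals1 in stroma (0.121 and 0.215) but not in the epithelial libraries (−0.050 and −0.064). Foxf1 was nearest to the BMP ligand gene Bmp4 (0.125 and 0.119) and the chemokine gene Ccl11 (0.146 and 0.095), which in the epithelial libraries stood at −0.026 and 0.038 for Bmp4 and at 0.094 and 0.095 for Ccl11. The first-ranked genes of Foxl1 and Foxf2 (Bmp4), Pdgfrb (Thy1) and Cd34 (Rspo3) had mean r of 0.071, 0.069, 0.074 and 0.061, and that of Sox6 (Tmem158) 0.096. These values are low. Foxl1 and Sox6 were seen in few cells at the thinned depth, so their first ranks rest on those cells. Pdgfra had Malat1 first (0.142 and 0.093), a nuclear noncoding RNA, and the trophocyte-list gene C3 next (0.127 and 0.101).

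Other genes of the same kinds were read from 4 lists. On the telocyte side of stroma none of the 4 tested PDGF ligand genes and relatives was higher and 2 were lower, Pdgfc (−1.87) and Pdgfrl (−1.26). Of the 7 hedgehog targets and mediators, the receptor and target gene Ptch1 was higher (0.92) and none was lower. Of 22 other mesenchymal transcription factor genes, Tcf21 was higher (0.61) and 9 were lower, among them Foxc1 (−1.40), Osr2 (−0.89) and Meis1 (−0.73), with a list median of −0.35 beside 0.02 over all genes. Of 13 other fibroblast surface genes, Nt5e (1.10) and Ly6c1 (0.84) were higher and Vcam1 (−0.92) was lower. Of all genes 4.14% were higher and 3.74% lower in this comparison. In the contractile comparison 0 of 23 tested transcription factor genes were higher and 6 lower, where 8.37% and 6.61% of all genes were. In the epithelial against the stromal libraries 5 of 24 were higher and 7 lower, near the 25.6% and 26.6% of all genes, with Osr2 at −4.40. Of the 7 hedgehog genes 1 was higher there, Gli3 (0.75), and 2 were lower, Gli1 (−2.53) and Smo (−1.07). The lists' counts on the telocyte side of the epithelial libraries were 0 or 1 in each direction, where 2.1% and 1.85% of all genes were called.

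Start-site sequences were read from RefSeq for the members that moved in opposite directions along the telocyte score, since Foxf2 was higher and Cd34 and Cd81 were lower on the telocyte side. RefSeq windows on GRCm38.p6 were found for 6 of the 10 members and span 250 bases before to 50 bases after the start, here on the plus strand at chr13:31625566-31625865 (Foxf2), chr1:194938571-194938870 (Cd34) and chr7:143052500-143052799 (Cd81). Capitals mark matches on either strand to the GC box GGGCGG, the TATA box with letters TATAAA, the forkhead core with letters TGTTTA and the GLI core with letters ACCACCC.
Foxf2: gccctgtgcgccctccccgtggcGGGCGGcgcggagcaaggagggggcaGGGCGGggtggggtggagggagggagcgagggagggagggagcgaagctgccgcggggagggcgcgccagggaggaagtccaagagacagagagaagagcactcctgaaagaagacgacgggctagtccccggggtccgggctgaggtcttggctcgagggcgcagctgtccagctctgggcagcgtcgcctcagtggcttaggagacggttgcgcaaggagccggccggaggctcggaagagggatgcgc
Cd34: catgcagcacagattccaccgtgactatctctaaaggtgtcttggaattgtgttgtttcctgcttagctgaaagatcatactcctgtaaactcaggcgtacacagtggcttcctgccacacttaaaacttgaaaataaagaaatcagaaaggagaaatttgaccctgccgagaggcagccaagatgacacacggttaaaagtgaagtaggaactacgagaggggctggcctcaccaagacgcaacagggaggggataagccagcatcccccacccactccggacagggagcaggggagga
Cd81: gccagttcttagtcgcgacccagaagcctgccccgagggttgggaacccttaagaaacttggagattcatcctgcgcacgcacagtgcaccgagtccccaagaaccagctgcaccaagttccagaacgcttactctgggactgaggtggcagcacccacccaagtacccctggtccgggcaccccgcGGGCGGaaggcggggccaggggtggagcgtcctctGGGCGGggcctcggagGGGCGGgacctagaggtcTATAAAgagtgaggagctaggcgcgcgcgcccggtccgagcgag
The Foxf2 window holds 2 GC boxes and 27 CG dinucleotides, the Cd81 window 3 GC boxes, 1 TATAAA match and 23 CG dinucleotides, and the Cd34 window none of the motifs and 7 CG dinucleotides, which is the median of all windows. Sox6, also higher on the telocyte side, has 6 windows at different starts, which are not printed since the counts do not tell its starts apart. Of these, 1 holds 4 GC boxes, 2 hold 1 TATAAA match each, and 1 of the latter also holds 1 forkhead core. The 4 motifs occur in 35.7%, 13.6%, 13.4% and 4.61% of all 32851 windows, so that matches are common and are given as a description only.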

How the data were processed

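Single-cell RNA was measured in 8 mouse 10x Genomics 3′ v3 libraries, 2 in each of 4 groups. The authors deposited raw UMI counts per gene and cell barcode, without normalization, made with Cell Ranger 6.0.1 (stroma) and 7.1.0 (epithelium) per the file headers. The submitters' processing notes name Cell Ranger 6 and mm10, and whether intron reads were counted is not given in the sources used here. Libraries held 99133978 to 191255856 UMIs. Stroma was the EpCAM-negative fraction.

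Cells were left out below 500 detected genes or above 10% mitochondrial UMIs. Fibroblasts were gated by marker genes, and no doublet caller was run. The limit of 0.1% on every other marker list can remove doublets with other cell types but not doublets of fibroblasts, whose part in the co-expression counts was not tested. Raw counts were summed per library and cell class and compared with edgeR 4.0.16 in R 4.3.3 (filterByExpr, TMM, quasi-likelihood test) with Benjamini-Hochberg adjustment over all genes tested and a threshold of 0.05. The library was a block where both arms came from the same libraries. Residual degrees of freedom were 2 for the library kinds and the score sides, and 4 for endothelial, glial and neuronal cells. They were 1 for the contractile comparison and for epithelial cells. The quasi-likelihood test therefore leans on a spread moderated over all genes. DESeq2 1.42.0, other gates, cell filters, score cuts, no filter on low counts and leaving out each library were tried as alternatives. Shares and co-expression used cells thinned to 3000 UMIs, leaving out 32, 15, 29 and 1 shallower fibroblasts of stroma 1 and 2 and epithelium 1 and 2. Limits for a count of 0 stand for 3 counts. The fits were tested on simulated counts, and of genes changed 4-fold 95.8% were recovered between score sides in stroma and 70.7% in the epithelial libraries (14907 genes each), 86.8% between library kinds (15957 genes), 98.0% in the contractile comparison (14191 genes), 92.0%, 78.7% and 97.3% against endothelial, glial and neuronal cells (10359 genes each) and 76.6% against epithelial cells (17556 genes). Between 3 and 11 unchanged genes were called per comparison. The simulated counts had the same dispersion for every gene and no differences between sums apart from depth and the planted changes. These shares are therefore not the power for the smaller changes reported above.

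All 10 members were named, with up to 4 genes of each of 4 lists of related genes. The members, marker lists and gene lists were chosen with earlier results of these data known. A share of 99.85% of feature identifiers was found in GENCODE M21, which gave positions and introns. Overlapping and antisense genes can share reads.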

Additional observations from a re-analysis of the deposited data

Results flagged for a closer look

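Some members also gave counts in the epithelial cells of libraries that held no cultured stroma and that enter no comparison above. Sox6 averaged 18.65 CPM in epithelial cells of colon tissue (19.8 and 17.5 CPM in the 2 libraries) and 1.953 CPM in organoid epithelium, and at 3000 UMIs per cell it was seen in 6.76% and 5.10% of tissue epithelial cells but in 0.42% and 0.71% of organoid cells. Cd81 averaged 180.9 CPM in tissue epithelium and 260.7 CPM in organoid epithelium. Pdgfrb averaged 5.759 CPM in tissue epithelium and 0.7629 CPM in organoid epithelium. Pdpn averaged 0.0621 CPM in organoid epithelium. These values were compared only with the limit that a count of 0 allows, and differences between tissue and organoids were not tested. Tissue and organoid libraries were counted with Cell Ranger 7.1.0, unlike stroma, and the introns of Sox6 span 553093 bases. The part of intron length in its level was not tested. In tissue 38.7% and 25.4% of barcodes passed the quality filters.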

How the results depend on the processing

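Of 722 fold changes of members under alternatives, 589 kept their direction and their side of the threshold, 79 kept the direction but no longer passed, 21 passed only under the alternative and 33 changed sign. The cause of these changes was not tested, apart from settings that use fewer cells or samples by construction. Values from single cells were averaged over the 2 stromal libraries and compared at other depths, gates and filters. Of these, 19 of 60 shares and 134 of 270 co-expression ratios moved by less than the standard deviation between the 2 libraries. The gates on lower and middle shares of collagen genes were chosen after seeing the data. Small cell numbers limit the endothelial, glial and neuronal classes and the fibroblasts of epithelial libraries. Leaving out a library was not run for the comparisons of fibroblasts with other classes or with epithelial cells and for the contractile comparison, since it leaves no spread to test against. Where it was run, the reduced group kept a single library, and the spread came from the libraries of the other kind. The neuronal class fell below the minimum of 20 cells with the stricter cell filter.

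The number of genes called between score sides in stroma (1202) was 536 with DESeq2, 2362 with the loose gate, 2717 with the lower collagen gate, 1987 with no filter on low counts, 442 with the strict gate, and 266 to 1393 with a library left out (601 without stroma 1 and 266 without stroma 2). In the epithelial libraries (604) it was 1199, 1343, 1139 and 76 with the loose gate, the lower collagen gate, no filter and the strict gate, 211 with the middle collagen gate, and 72 to 1092 with a library left out. For the interaction (96) it was 222 with DESeq2, 431, 626, 434 and 20 with the loose gate, the lower collagen gate, no filter and the strict gate, 12 with the middle collagen gate, 56 with scores from thinned cells, and 10 to 180 with a library left out. For the contractile comparison (2147) it was 665 with DESeq2, 1279 with the lower collagen gate, 1246 with the strict gate and 1188 with the stricter cell filter, and against glia (2630) it was 1702 with the lower collagen gate.

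The replicate number paired no samples by the labels, and with 2 pairs the differences between replicates 1 and 2 correlated at 0.074 across 16177 genes. With it as a replicate block the comparison of epithelial with stromal libraries called 8591 genes, and of the member calls Cd34 was lost (adjusted p = 0.0558). Without the library block, which joins terciles or classes of the same library, the calls fell to 63 in stroma (88.9% of them higher, against 52.6% with the block), 33 in the epithelial libraries, 0 for the interaction and 0 for the contractile comparison, and became 2872, 2535, 3802 and 8205 against endothelial, glial, neuronal and epithelial cells.

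Signs that changed belonged mostly to small effects. In the comparison of libraries Sox6 became −0.21 (loose gate), −0.15 (lower collagen gate) and −0.39 without epithelium 1 (up to 1.28 with other libraries left out), and Cd34 became 0.015 (strict gate). Between sides in stroma Pdgfrb became −0.0059, −0.014, −0.011 and −0.011 (loose, lower and middle collagen gates and thinned scores) and −0.081 without stroma 1 (up to 0.24 with other libraries left out), Pdpn −0.045 without stroma 2 (up to 0.38), and Thy1 0.13 (strict gate). In the epithelial libraries Foxf1 became −0.13 and Pdgfra 0.088 (strict gate), and Foxf2 0.027 (DESeq2), 0.51 (middle collagen gate), 0.23 (thinned scores), 0.044 (without epithelium 1) and 0.0082 (without stroma 2), from −0.16 upward with a library left out. For the interaction Foxf1 became −0.072, −0.15 and −0.39 (loose, lower collagen and strict gates), Pdgfra −0.094, −0.031, −0.013 and −0.086 (loose, lower and middle collagen gates and stricter cell filter), Pdpn −0.067 without epithelium 2 and −0.0089 without stroma 1 (up to 0.45), and Thy1 0.082, 0.078 and 0.19 (score cut at the median, stricter cell filter, without epithelium 1, and down to −1.10 with another library left out). With the strict gate Foxf1 became −0.032 and Thy1 0.044 in the contractile comparison, and Thy1 0.046 against endothelial cells.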

Other observations

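Across tissue epithelial cells thinned to 3000 UMIs, of which 2339 and 2296 were used, the genes with the highest mean correlation with Sox6 were the mineralocorticoid receptor gene Nr3c2 (mean r = 0.141) and Ext1 (0.136), followed by Ceacam20, Dgkh and the chloride exchanger gene Slc26a3 of surface colonocytes. This ranking was added after the Sox6 values were seen and is a description without a test. The part of intron length in it was not tested.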
